A study of Mus musculus with 10 samples.

Results

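Mechanically gated channels and the YAP pathway were followed through 10 genes of 50763 in the count table, chosen by symbol. They are the channel genes Piezo1, Piezo2 and Trpv4, the coactivator genes Yap1 and Wwtr1, their DNA-binding partner Tead1, and Ccn1, Ccn2, Ankrd1 and Amotl2, which are widely used as readouts of YAP activity. RNA-seq was performed on lens epithelium explants of mice aged 3 weeks on an FVB/N background, with 3 WT libraries, 3 libraries of the transgenic line OVE853 and 4 of the independent transgenic line OVE918. Both lines are homozygous for a transgene in which the lens-specific αA-crystallin promoter drives secreted, constitutively active human TGF-β1, and both develop an anterior subcapsular plaque, which stayed within the explants. Each library is a pool, of up to 9 mice for WT and OVE853 and of up to 7 mice for OVE918, so that a value is an average over animals and over epithelium and plaque together. No treatment was given in any group. P-values measure the spread between these pools.

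Piezo1 and Piezo2 open when the membrane is stretched and let cations in, and Trpv4 is a calcium-permeable channel that responds to swelling and stretch and is known in the lens for its part in the control of water and pressure. YAP (Yap1) and TAZ (Wwtr1) carry signals from a stiff matrix, a spread cell shape or contractile actin into the nucleus, where they bind TEAD factors, while the Hippo kinases phosphorylate them and hold them in the cytoplasm. Transcript levels of YAP, TAZ and TEAD do not show where these proteins are in the cell, which is why target genes are read beside them.

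The letters GGAATG are the core that TEAD factors recognise, and the 250 bases before the transcription start were searched for them on both strands in RefSeq promoters (GRCm38.p6). The table held 7 of the 10 genes in 8 promoters, while Piezo2, Tead1 and Ccn2 were not among them. Of these 8 promoters, 6 held the core, against 12.6% of 32851 promoters of all genes. Those of Piezo1 and Trpv4 did not hold these letters in this window. The single core lay 141 to 136 bases before the start in Yap1, and in the 2 promoters of Wwtr1, which overlap and share the same core, it lay 136 to 131 and 170 to 165 bases before. The AP-1 letters TGANTCA and the CArG box, the element of serum response factor (SRF), were found in 0 of the 8 promoters, and in 6.75% and 1.47% of all promoters. Having no match, neither overlapped with a TEAD core. A match describes the letters and not binding. The promoters of the target genes with a core are shown because these genes did not move together, with each core in capitals and the last base next to the start. That of Ccn1 is at chr3:145649986-145650235 on the minus strand, with the core on the opposite strand 103 to 98 bases before the start. That of Ankrd1 is at chr19:36119845-36120094 on the minus strand, with cores at 210 to 205 and 123 to 118 bases before. That of Amotl2 is at chr9:102717554-102717803 on the plus strand, with the core on the opposite strand at 65 to 60 bases before.
Ccn1: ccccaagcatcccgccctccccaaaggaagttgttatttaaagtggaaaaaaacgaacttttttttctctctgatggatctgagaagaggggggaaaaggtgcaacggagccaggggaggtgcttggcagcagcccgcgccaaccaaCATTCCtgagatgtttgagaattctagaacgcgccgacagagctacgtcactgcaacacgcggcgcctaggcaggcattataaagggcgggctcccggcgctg
Ankrd1: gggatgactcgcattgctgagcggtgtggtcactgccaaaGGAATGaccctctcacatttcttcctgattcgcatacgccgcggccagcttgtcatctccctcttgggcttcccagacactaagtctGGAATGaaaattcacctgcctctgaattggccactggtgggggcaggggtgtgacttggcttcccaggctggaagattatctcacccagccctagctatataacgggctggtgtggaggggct
Amotl2: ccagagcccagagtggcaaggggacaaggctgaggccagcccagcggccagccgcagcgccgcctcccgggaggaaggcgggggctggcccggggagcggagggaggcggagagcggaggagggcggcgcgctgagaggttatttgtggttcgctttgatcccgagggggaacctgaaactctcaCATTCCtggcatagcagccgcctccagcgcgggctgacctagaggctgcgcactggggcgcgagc

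Depth was even, with total counts of 24073311 to 31908525 per library. Levels are given as CPM, which are counts scaled to a common library size with TMM factors, and differences are log2 fold changes from edgeR's quasi-likelihood fit of all 3 groups, with the FDR adjusted over the 11097 genes tested. The labels were checked on Tgfb1, whose CPM was 54.3 ± 6.41 in WT (SD, n = 3), 350 ± 11.3 in OVE853 (SD, n = 3) and 775 ± 78.0 in OVE918 (SD, n = 4), where reads of the human transgene and of the mouse gene cannot be told apart. Lens epithelium markers were abundant in every library, with Cryaa at 76870 to 151300 CPM and Pax6 at 356 to 473 CPM. Cryaa was lower in all OVE853 libraries (76870 to 88420 CPM) than in WT (114500 to 118700 CPM). Of the 7 markers Cdh1 alone passed the FDR, lower in both lines (-0.76, edgeR FDR 0.0212, and -0.61, edgeR FDR 0.0305). The 6 lens fiber cell markers summed to 13840 to 21170 CPM in WT, 8735 to 15220 in OVE853 and 13170 to 27300 in OVE918. Over the 5 tested, the median of OVE918 over OVE853 was 0.84, with 0 past the FDR. WT replicate 3 stood apart from the other WT libraries, since its 6 retinal neuron markers summed to 762 CPM against 77.0 and 92.1, and its 5 Müller glia markers to 4088 CPM against 1806 and 1619. WT replicate 1 had the highest WT sum of the 6 pigmented epithelium and melanocyte markers, 144 CPM against 44.7 and 62.1. Several other-tissue marker lists also ran with genotype. The retinal neuron markers summed to 21.5 to 60.1 CPM in OVE853, below every WT library, and to 22.3 to 117 in OVE918, overlapping with WT. The median log2 fold change of the 4 tested was -3.60 and -2.68, with 0 past the FDR. The 5 non-pigmented ciliary epithelium markers summed to 156 to 251 CPM in WT, 48.9 to 67.7 in OVE853 and 14.0 to 28.7 in OVE918, and the Müller glia markers summed to 841 to 1054 CPM in OVE853 and 432 to 709 in OVE918, and none of these 10 markers was at 0 throughout. The 5 corneal markers summed to 237 to 1619 CPM in WT, 62.7 to 92.9 in OVE853 and 26.6 to 81.8 in OVE918, nearly all of it Aldh3a1, while Kera was at 0 in every library. The 5 Schwann cell and neural crest markers summed to 14.2 to 26.8 CPM in WT, 6.84 to 8.91 in OVE853 and 5.85 to 11.0 in OVE918. Single markers of other cells were higher in the lines, with Cdh5 of endothelium at 0.28 to 1.70 CPM in WT, 4.22 to 7.25 in OVE853 and 3.41 to 4.35 in OVE918, Des of mural cells at 0.09 to 0.35, 1.04 to 3.88 and 2.83 to 5.72, and C1qa of macrophages at 3.46 to 9.68, 13.1 to 17.3 and 8.16 to 23.1. These single markers do not stand for their lists. The 6 endothelium markers summed to 55.05 to 139 CPM in WT, 39.4 to 52.1 in OVE853 and 45.4 to 59.4 in OVE918. Of that list, Kdr was lower in both lines, at 15.2 to 113, 6.33 to 14.1 and 5.36 to 14.1 CPM. The sums of the 6 mural and of the 6 macrophage markers overlapped between WT and each line. Member results whose call WT replicate 3 changed are also given without it.

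Piezo2 rose about 3-fold in both lines, while Piezo1 and Trpv4 moved less. Among the 9 members that passed the minimum of 2 FPKM in 5 libraries, 1 was called a DEG in OVE853, which was Piezo2, and 2 in OVE918, which were Piezo2 (higher) and Amotl2 (lower). A DEG had a log2 fold change of 1 or more in size at an FDR of 0.05 or less, which 4.42% of all genes tested met in OVE853 and 5.60% in OVE918. By FDR alone Piezo2, Trpv4 and Wwtr1 rose and Ccn2 and Amotl2 fell in OVE853, where 8.10% of genes rose and 7.69% fell, and Piezo2 rose and Ccn2 and Amotl2 fell in OVE918, where 8.00% rose and 11.0% fell. The libraries of OVE853 and WT did not overlap for 8 of the 9 members, against 45.4% of all genes, and those of OVE918 and WT for 3 of the 9, against 27.2%. The median log2 fold change of the 9 members was 0.37 in OVE853 and 0.15 in OVE918, beside -0.01 and 0.01 for all genes tested. Both comparisons share the WT libraries. In pooled tissue, fewer cells of a type and less RNA per cell cannot be told apart.

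**Figure D1:**
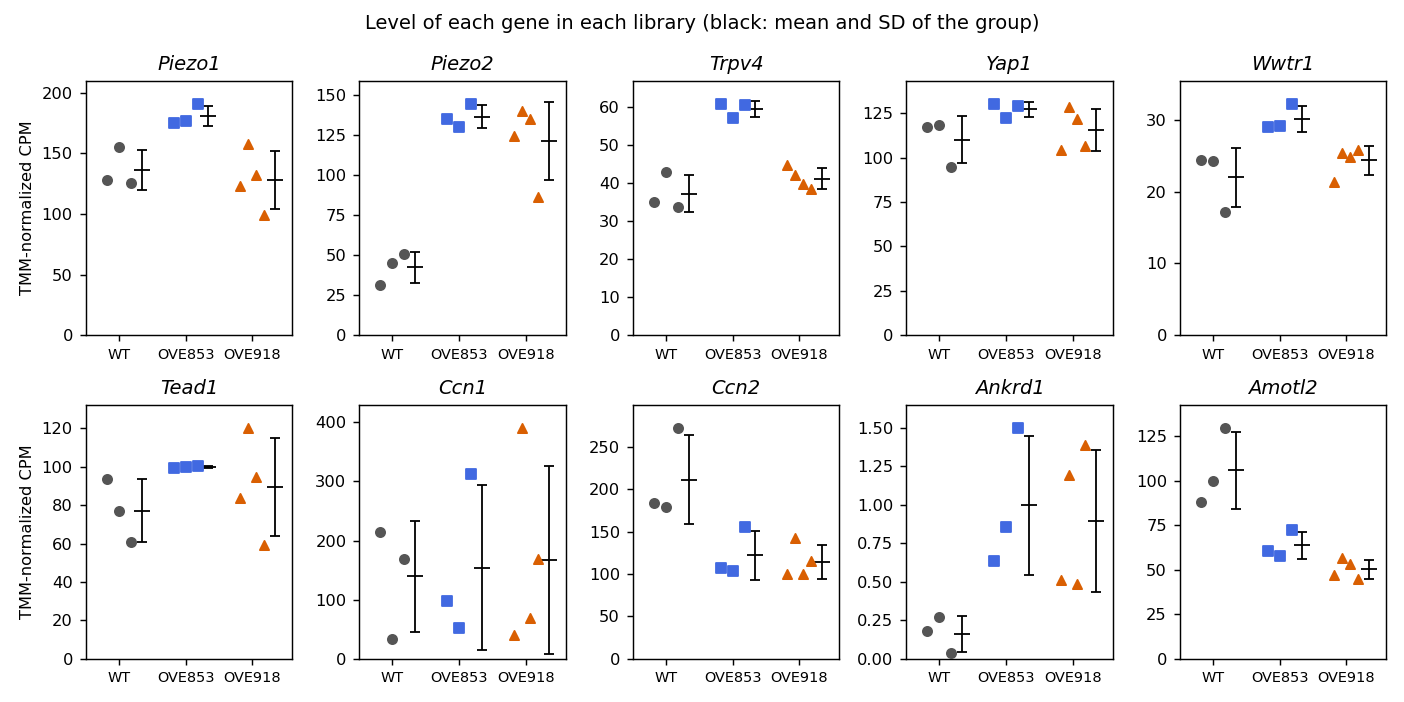
TMM-normalized CPM of the 10 genes (y axis, from 0) in each of the 10 libraries, grouped on the x axis as WT, OVE853 and OVE918, with 1 point a library and the black bar giving the mean and SD of the group. All transgenic libraries lie above all WT libraries for Piezo2 and Ankrd1 and below them for Ccn2 and Amotl2, and Ccn1 spreads widely within each group.

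Piezo2 encodes the stretch-gated channel best known from touch receptors and lies at chr18:63143284-63520260 (minus strand; positions of whole genes are on GRCm39, those of promoters on GRCm38.p6). Its CPM was 31.6, 44.8 and 50.3 in WT, 135, 130 and 144 in OVE853, and 124, 140, 135 and 86.1 in OVE918. Every transgenic library was above every WT library, and the lowest, OVE918 replicate 4, was still above the highest WT library. The log2 fold change was 1.69 (SE 0.20, edgeR FDR 0.000366) in OVE853 and 1.52 (SE 0.19, edgeR FDR 0.000293) in OVE918. With each library left out in turn it ranged from 1.52 to 1.83 in OVE853 and from 1.35 to 1.66 in OVE918, with an FDR of 0.00201 or less. Without WT replicate 3 it was 1.83 and 1.66. The lines themselves differed by -0.17 (OVE918 over OVE853, 95% interval -0.56 to 0.23, edgeR FDR 0.58), so a difference was not detected, and the interval allows one of up to 0.56 on the log2 scale.

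Piezo1, the broadly expressed member of the pair (chr8:123208437-123278072, minus strand), was 128, 155 and 125 CPM in WT, 175, 176 and 191 in OVE853, and 123, 158, 132 and 99.5 in OVE918. All OVE853 libraries were above all WT libraries, whereas OVE918 overlapped with WT. Its log2 fold change was 0.41 (SE 0.15, edgeR FDR 0.0879) in OVE853 and -0.09 (SE 0.14, edgeR FDR 0.72) in OVE918. Between the lines it was -0.50 (SE 0.14, edgeR FDR 0.0947), with all 4 OVE918 libraries below all 3 OVE853 libraries. With each library left out, the FDR of OVE853 ran from 0.0314, without OVE918 replicate 4, to 0.232. Without WT replicate 3 the log2 fold change was 0.35 (edgeR FDR 0.222). Between the lines the FDR ran from 0.0369, without OVE918 replicate 2, to 0.326. In each of these 2 comparisons only 1 of the 10 runs was past the FDR.

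Per length, Piezo1 was the more abundant of the pair in every library. Its level was 16.5 ± 2.00 FPKM (CPM per kb of exon) in WT (SD, n = 3), 22.0 ± 1.04 in OVE853 (SD, n = 3) and 15.6 ± 2.93 in OVE918 (SD, n = 4), whereas that of Piezo2 was 4.01 ± 0.92, 13.0 ± 0.68 and 11.5 ± 2.31 FPKM. The ratio of Piezo2 to Piezo1 per length was 0.193, 0.226 and 0.314 in WT, 0.601, 0.576 and 0.591 in OVE853, and 0.789, 0.692, 0.798 and 0.676 in OVE918. The groups did not overlap in this ratio, which was lowest in WT and highest in OVE918.

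Trpv4 (chr5:114760209-114796914, minus strand) was higher in OVE853 alone by the test. Its CPM was 35.1, 42.9 and 33.8 in WT, 60.8, 57.0 and 60.6 in OVE853, and 44.7, 42.1, 39.7 and 38.4 in OVE918. The OVE853 libraries lay close together and above every other library, while OVE918 overlapped with WT. On the log2 scale the difference was 0.67 (SE 0.11, edgeR FDR 0.00209) in OVE853 and 0.15 (SE 0.10, edgeR FDR 0.338) in OVE918. The direct test of OVE918 over OVE853 gave -0.53 (SE 0.10, edgeR FDR 0.0382), and Trpv4 was the one member past this FDR, as were 1.32% of all genes. That call was lost without any 1 of the OVE853 libraries or of OVE918 replicates 1, 3 and 4, with FDRs of 0.0683 to 0.186, although the difference stayed between -0.57 and -0.50. It was also lost with upper-quartile scaling (edgeR FDR 0.0505) or filterByExpr (edgeR FDR 0.0610). Of the 9 members, 4 had an unadjusted edgeR p of at most 0.05 between the lines, all lower in OVE918, against 22.9% of all genes in either direction, and 0 were DEGs by edgeR, DESeq2 or voom, against 0.487% of all genes by edgeR. The lines did not overlap for 4 of the 9 members, against 29.5% of all genes.

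The list of 18 channels linked to stretch or swelling, which holds these 3, had 9 members that passed the FPKM minimum. In OVE853, 3 of the 9 rose (Piezo2, Trpv4 and Trpm7), and in OVE918 Piezo2 rose and Trpc1 fell, beside 8.10% of all genes higher in OVE853 and 8.00% higher and 11.0% lower in OVE918. Of the 9 channels under the FPKM minimum, those with a line wholly apart from WT were singled out after their values were seen. They went both ways. Among all genes tested, 45.4% did not overlap with WT in OVE853 and 27.2% in OVE918, so the values only describe these genes. Kcnk2, a stretch-activated potassium channel, was at 0.63 to 1.96 CPM in WT, 0.07 to 0.19 in OVE853 and 0.13 to 0.60 in OVE918. Tmem63c was at 3.53 to 18.0, 1.16 to 2.52 and 1.23 to 4.20 CPM. WT thus lay above both lines for Kcnk2 and above OVE853 for Tmem63c. Trpc6 was at 1.385 to 2.86 CPM in WT, 2.01 to 2.59 in OVE853 and 2.955 to 5.81 in OVE918. Panx1 was at 2.325 to 3.61, 3.535 to 4.34 and 4.76 to 6.69 CPM. For both, OVE918 lay above WT and OVE853 overlapped with WT. Trpm7, a channel fused to a kinase that conducts magnesium and calcium, was 48.6 ± 7.66 CPM in WT (SD, n = 3) and 80.3 ± 3.83 in OVE853 (SD, n = 3), a log2 fold change of 0.72 (edgeR FDR 0.0141) that had an FDR of 0.0501 without OVE853 replicate 3 and 0.0540 without OVE853 replicate 2. In OVE918 it was 56.5 ± 10.3 CPM (SD, n = 4), with a log2 fold change of 0.22 (edgeR FDR 0.354). Trpc1 was 21.0 ± 6.97 CPM in WT (SD, n = 3) and 13.1 ± 2.11 in OVE918 (SD, n = 4), a log2 fold change of -0.69 (edgeR FDR 0.0372), lost without any 1 of 8 libraries and at -0.42 (edgeR FDR 0.150) without WT replicate 3. The median of the 9 channels was 0.30 in OVE853 and -0.09 in OVE918.

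Levels of the coactivators and of Tead1 moved by less than 1.4-fold. Yap1 (chr9:7932000-8004661, minus strand) was 117, 118 and 94.8 CPM in WT, 130, 123 and 129 in OVE853, and 104, 129, 122 and 107 in OVE918, with log2 fold changes of 0.21 (95% interval -0.04 to 0.46, edgeR FDR 0.216) and 0.07 (-0.17 to 0.30, edgeR FDR 0.703). Wwtr1 (chr3:57363067-57483331, minus strand) was 24.5, 24.3 and 17.2 CPM in WT, 29.0, 29.2 and 32.2 in OVE853, and 21.4, 25.4, 24.9 and 25.9 in OVE918. OVE853 lay above WT in all libraries, and WT replicate 3 was the lowest of the 10. The log2 fold change of Wwtr1 was 0.46 (SE 0.14, edgeR FDR 0.0485) in OVE853 and 0.15 (SE 0.13, edgeR FDR 0.465) in OVE918. Without WT replicate 3 it was 0.30 (edgeR FDR 0.109) in OVE853 and -0.0013 in OVE918, and leaving out 8 of the 10 libraries 1 at a time took the FDR of OVE853 above 0.05. Tead1 (chr7:112278522-112506014, plus strand) was 93.4, 76.9 and 60.7 CPM in WT, 99.4, 99.9 and 100 in OVE853, and 83.8, 120, 94.4 and 59.1 in OVE918. Its log2 fold changes were 0.37 (95% interval -0.12 to 0.87, edgeR FDR 0.255) and 0.22 (-0.25 to 0.68, edgeR FDR 0.518). Without WT replicate 3 the change in OVE853 was 0.23 for Tead1 (edgeR FDR 0.565) and 0.11 for Yap1 (edgeR FDR 0.556).

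Of the 10 TEAD factors, coactivators and Vestigial-like cofactors listed, 6 passed the FPKM minimum. Tead3 was 17.1 ± 3.51 CPM in WT (SD, n = 3), 27.9 ± 1.14 in OVE853 (SD, n = 3) and 22.0 ± 0.95 in OVE918 (SD, n = 4), changes of 0.71 (edgeR FDR 0.00588) and 0.37 (edgeR FDR 0.0608) on the log2 scale. Vgll4, a cofactor that competes with YAP for TEAD, had a log2 fold change of -0.37 in OVE918 (edgeR FDR 0.0385), a call lost when any of 8 libraries was left out, and of -0.19 in OVE853 (edgeR FDR 0.279). Vgll3 did not reach the FPKM minimum in 5 libraries and was singled out after its values were seen. It ranged from 7.33 to 29.5 CPM in WT, from 2.78 to 3.17 in OVE853 and from 1.71 to 3.26 in OVE918. Among the 18058 genes kept by edgeR's filterByExpr its log2 fold changes were -2.68 (edgeR FDR 0.00354) and -2.98 (edgeR FDR 0.000616).

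**Figure D2:**
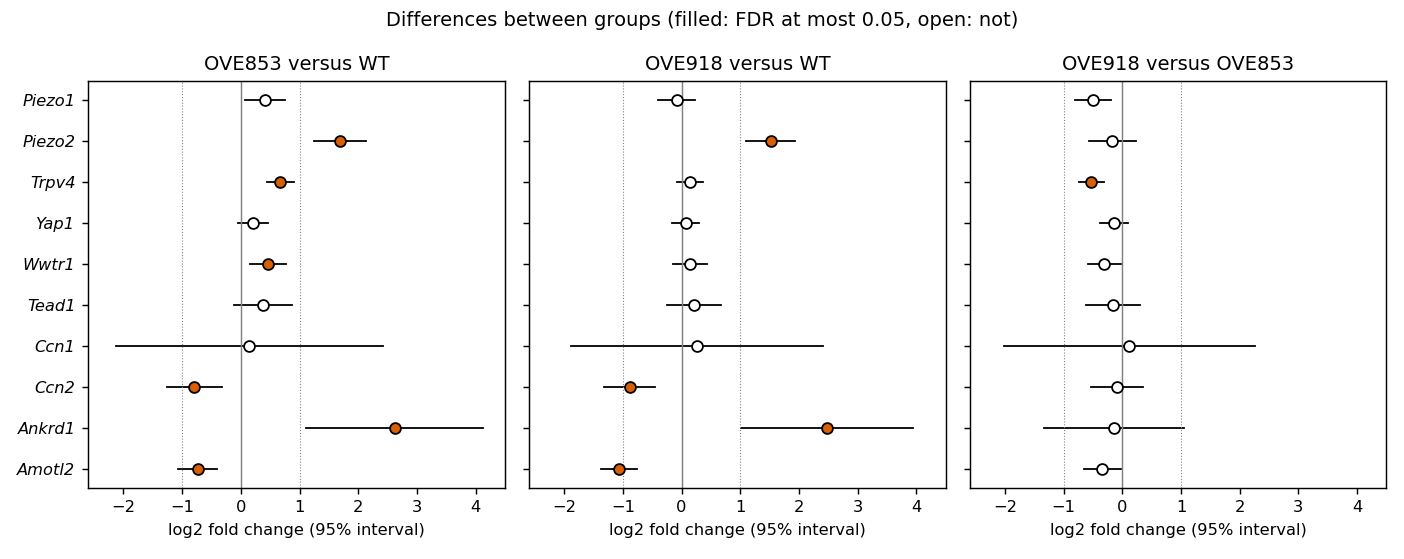
Log2 fold changes of the 10 genes (x axis) with 95% intervals in 3 comparisons, where filled points have an edgeR FDR of at most 0.05 and dotted lines mark 1 and -1. Ankrd1 is from the genes kept by filterByExpr, and the intervals of Ccn1 reach from about -2 to more than 2 in every comparison.

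The 4 target genes did not share a direction. Ccn2 and Amotl2 fell in both lines, Ankrd1 was higher from a very low level, and Ccn1 differed more between replicates than between groups. Ccn2 (CTGF, chr10:24471333-24474900, plus strand) encodes a matricellular protein that is a standard target of both YAP and TGF-β. Its CPM was 183, 179 and 273 in WT, 107, 104 and 155 in OVE853, and 100, 143, 100 and 115 in OVE918. Every transgenic library was below every WT library, and WT replicate 3 was the highest of all. The log2 fold change was -0.79 (SE 0.21, edgeR FDR 0.0313) in OVE853 and -0.88 (SE 0.20, edgeR FDR 0.0101) in OVE918. Without WT replicate 3 it was -0.57 (edgeR FDR 0.0895) and -0.66 (edgeR FDR 0.0314). The call of OVE853 was also lost without OVE853 replicate 1 (-0.71, edgeR FDR 0.110) or replicate 2 (-0.69, edgeR FDR 0.112), and that of OVE918 held without each library. The ciliary, Müller glia and corneal markers that were lower in both lines moved in the same direction as Ccn2 and Amotl2, and their part in these falls was not tested.

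Amotl2, angiomotin-like 2, is a YAP target whose protein in turn binds YAP at cell junctions, and it lies at chr9:102593836-102610617 (plus strand). It was 87.9, 99.7 and 130 CPM in WT, 60.6, 57.9 and 72.4 in OVE853, and 47.0, 56.4, 53.1 and 44.8 in OVE918. The 3 groups did not overlap, with OVE918 lowest. Its log2 fold change was -0.73 (SE 0.15, edgeR FDR 0.00987) in OVE853 and -1.07 (SE 0.14, edgeR FDR 0.000394) in OVE918, and that between the lines was -0.34 (SE 0.14, edgeR FDR 0.191). Without WT replicate 3 it was -0.56 (edgeR FDR 0.0183) and -0.90 (edgeR FDR 0.000532), so that the fall in OVE918 kept its FDR and was no longer 2-fold.

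Ankrd1 encodes an ankyrin repeat protein of heart and muscle that is induced by stretch, and it lies at chr19:36089352-36097506 (minus strand). It had 4, 7 and 1 counts in WT, 21, 23 and 44 in OVE853, and 12, 32, 13 and 30 in OVE918. These are 0.04 to 0.27 CPM in WT, 0.63 to 1.50 in OVE853 and 0.48 to 1.38 in OVE918, under 1 FPKM in every library, so Ankrd1 did not enter the main set of genes. All transgenic libraries were above all WT libraries. Among the genes kept by filterByExpr its log2 fold change was 2.62 (95% interval 1.11 to 4.13, edgeR FDR 0.0312) in OVE853 and 2.48 (1.01 to 3.95, edgeR FDR 0.0269) in OVE918, where 6.54% and 6.85% of genes rose. It passed that filter only through the transgenic libraries, so the call describes it and nothing is read from these shares. WT replicate 3 held 1 count, and without it the values were 2.08 (edgeR FDR 0.0756) and 1.96 (edgeR FDR 0.0702). The call was also lost without any 1 of the OVE853 libraries in OVE853, with the highest FDR of 0.122, and without OVE918 replicate 2 or 4 in OVE918. Its close relative Ankrd23 was tested and had 7.71 ± 1.35 CPM in WT (SD, n = 3) and rose to 12.1 ± 1.18 in OVE853 (SD, n = 3) and 10.6 ± 0.86 in OVE918 (SD, n = 4), changes on the log2 scale of 0.65 (edgeR FDR 0.0161) and 0.46 (edgeR FDR 0.0444). The first of these calls was lost without WT replicate 2, OVE853 replicate 1 or OVE853 replicate 3 (FDR up to 0.0754), and the second without any 1 of 9 libraries (FDR up to 0.153).

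**Figure D3:**
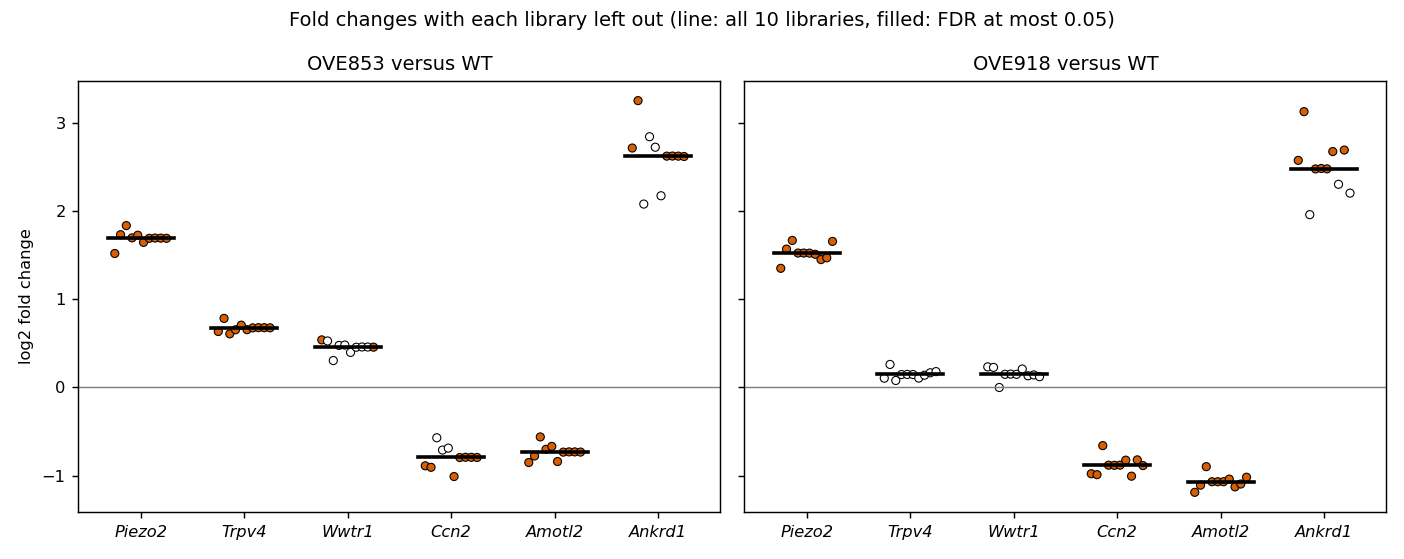
Log2 fold changes over WT (y axis) of 6 members (x axis) with each of the 10 libraries left out, 1 point each, filled where the edgeR FDR was at most 0.05, with the line at the value of all 10 libraries. Piezo2 and Amotl2 stay past the FDR in both lines, and Ankrd1 and, in OVE853, Wwtr1 and Ccn2 do not.

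Ccn1 (CYR61, chr3:145352720-145355738, minus strand) is the close relative of Ccn2 and is induced within minutes by growth factors as well as through YAP. Its CPM was 214, 33.7 and 169 in WT, 97.0, 52.2 and 313 in OVE853, and 40.9, 391, 69.6 and 168 in OVE918. All groups overlapped, and the highest library was 6.35, 5.99 and 9.55 times the lowest within WT, OVE853 and OVE918. On the log2 scale the change was 0.15 (SE 1.00, edgeR FDR 0.930) in OVE853 and 0.27 (SE 0.94, edgeR FDR 0.874) in OVE918, with 95% intervals of -2.13 to 2.43 and -1.88 to 2.41, so that a 3-fold change in either direction lay within both intervals. The SD of log2 CPM within groups was 1.40 for Ccn1 against a median of 0.18 over all genes tested, and 99.8% of genes had a smaller one. That of the other tested members was between 0.12 (Trpv4) and 0.32 (Tead1), so the wide spread of Ccn1 was not shared by Ccn2 (0.30) or Amotl2 (0.20).

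The spread of Ccn1 ran with that of immediate early genes. Of all genes tested, the 3 whose log2 CPM was most like that of Ccn1 over the 10 libraries were Fos (Pearson r 0.991, Spearman rho 1.00), Egr1 (0.983, rho 0.988) and Zfp36 (0.980, rho 0.988), which are rapidly induced transcription factors and a regulator of mRNA decay. Fos was 382, 31.4 and 315 CPM in WT, 140, 68.8 and 621 in OVE853, and 57.6, 987, 137 and 315 in OVE918. The 10 libraries have the same order in Ccn1 and Fos, with OVE918 replicate 2 highest and WT replicate 2 lowest in both. Without these 2 libraries r was 0.991, and over deviations from the group means it was 0.996. Of 14 immediate early genes listed after this was seen, 12 were tested, with r to Ccn1 between 0.52 (Ier3) and 0.99. The genes were picked as the nearest of all those tested and the libraries share preparation and depth, so these values are a description. For Ccn2 the same comparison with Fos gave r 0.31 over the libraries and 0.77 over deviations from the group means, and for Amotl2 0.03 and 0.43.

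**Figure D4:**
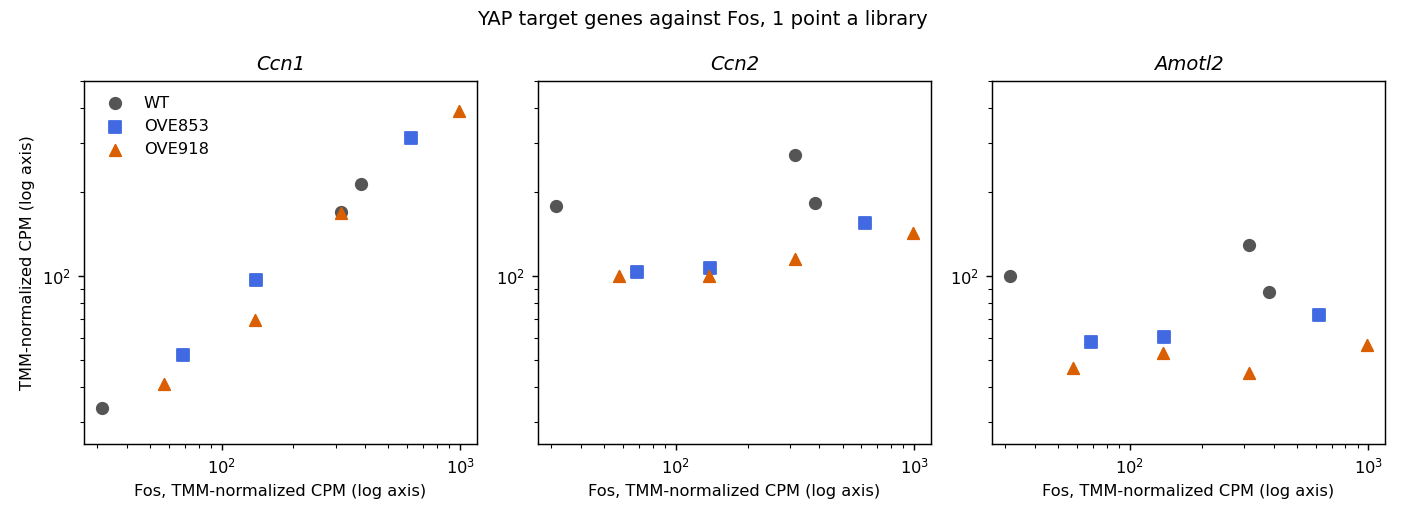
CPM of Ccn1, Ccn2 and Amotl2 (y axis, log scale) against CPM of Fos (x axis, log scale), with 1 point a library and groups by colour and shape. Ccn1 rises with Fos over all 10 libraries, while for Ccn2 and Amotl2 the 3 WT libraries lie above the transgenic ones at any level of Fos.

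By the same measure the genes nearest to Piezo2 were Ptpn1 (r 0.986), Stat3 (0.985) and Osmr (0.984), those nearest to Piezo1 were Stag1 (0.986), Rnf216 (0.981) and Smad3 (0.969), and those nearest to Ccn2 were Trappc9 (0.966), Cptp (0.950) and Cnp (0.936), each over 10 libraries. In order of mean level per length, Ccn1 and Ccn2 were the highest of the 10 genes in each group and overlapped with each other, and Yap1 came next, although Ccn1 was below Yap1 in WT replicate 2, OVE853 replicate 2 and OVE918 replicate 1. Wwtr1 and Ankrd1 had the lowest means in each group, and Wwtr1 overlapped with Piezo2 in WT. Amotl2 was 24.4 ± 4.97 FPKM in WT, above Piezo1 in all libraries, and 14.7 ± 1.78 in OVE853 and 11.6 ± 1.24 in OVE918, where its mean came after Piezo1 and Trpv4. It overlapped with Piezo2 in both lines and, in OVE918, also with Piezo1, Trpv4 and Tead1.

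Among 25 genes of the Hippo pathway, 21 were tested. They are kinases, adaptors and upstream regulators, listed without regard to the direction in which each acts on YAP. In OVE853 Fat4 and Amotl2 fell, and in OVE918 Fat4, Amotl2, Amotl1, Frmd6 and Wtip fell, 2 and 5 of 21 beside 7.69% and 11.0% of all genes. Across the other tools and settings the count lower was 2 to 4 in OVE853 and 4 to 10 in OVE918, with 8 by DESeq2 and 10 by voom. These tools also called more of all 11097 genes lower. In OVE918 these were 1488 by DESeq2 and 1576 by voom against 1222 by edgeR, and in OVE853 1317 and 1984 against 853. By edgeR 0 rose in either line, with 0 and 2 higher at an unadjusted p of at most 0.05 (16.8% and 15.0% of all genes) and up to 1 in each by the other tools and filters. The median was 0.02 in OVE853 and -0.26 in OVE918. Fat4, a giant protocadherin at the head of the pathway, was 207 ± 31.9 CPM in WT (SD, n = 3), 38.7 ± 8.64 in OVE853 (SD, n = 3) and 22.0 ± 11.0 in OVE918 (SD, n = 4), changes on the log2 scale of -2.42 (edgeR FDR 0.00398) and -3.23 (edgeR FDR 0.000293), and -2.52 and -3.33 without WT replicate 3. The non-pigmented ciliary epithelium markers had the same order of groups, with a median log2 fold change of -2.40 and -3.89 over the 4 tested, and their part in the fall of Fat4 was not tested. Amotl1, the relative of Amotl2, was 63.3 ± 2.36 CPM in WT (SD, n = 3) and 37.1 ± 7.05 in OVE918 (SD, n = 4), a log2 fold change of -0.77 (edgeR FDR 0.00231), and -0.42 in OVE853 (edgeR FDR 0.0706). Frmd6 had -0.56 in OVE918 (edgeR FDR 0.0168), lost without WT replicate 2 (edgeR FDR 0.0688), and -0.44 in OVE853 (edgeR FDR 0.0661). The core kinases Stk3, Stk4, Lats1 and Lats2 were not past the FDR in either line.

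Of 22 genes of a published pan-tissue signature of YAP and TAZ, which holds the 4 target members, 18 were tested. In OVE853, 4 rose (Igfbp3, Nt5e, Axl and Asap1, the last with an edgeR FDR of 0.0225 that was up to 0.0896 without 1 library) and 2 fell (Ccn2 and Amotl2), and in OVE918, 4 rose (Igfbp3, Nt5e, Axl and Gadd45a) and the same 2 fell. Over all genes 8.10% rose and 7.69% fell in OVE853, and 8.00% rose and 11.0% fell in OVE918, so that the 2 of 18 lower in OVE918 are near the share of all genes. The FPKM minimum in 5 libraries can be met by the transgenic libraries without WT. Igfbp3 and Nt5e were low in WT and may have entered the test only through the lines, so nothing is read from the share that rose. The median of the 18 was 0.11 and -0.04. When WT replicate 3 was left out, 2 rose and 1 fell in OVE853, and 5 rose and 4 fell in OVE918. In that fit 679 of all 10953 genes rose and 503 fell in OVE853, and 695 rose and 909 fell in OVE918. Nt5e, the ecto-enzyme CD73 that makes adenosine, was 3.58 ± 0.33 CPM in WT (SD, n = 3), 17.6 ± 1.22 in OVE853 (SD, n = 3) and 21.5 ± 5.07 in OVE918 (SD, n = 4), changes on the log2 scale of 2.30 (edgeR FDR 4.56e-05) and 2.59 (edgeR FDR 8.03e-06). Igfbp3, an IGF-binding protein that TGF-β also induces, was 1.35 ± 0.65, 6.96 ± 2.99 and 24.5 ± 9.31 CPM, with 2.38 (edgeR FDR 0.0138, and 0.0533 without WT replicate 3 or 0.0506 without OVE853 replicate 3) and 4.20 (edgeR FDR 0.000372). Axl, a receptor tyrosine kinase, had 1.05 (edgeR FDR 0.0273) and 1.18 (edgeR FDR 0.00954), the first lost without WT replicate 2, OVE853 replicate 1 or OVE853 replicate 3, with an FDR of up to 0.108. Gadd45a had 1.27 in OVE918 (edgeR FDR 0.0239), lost without any 1 of 4 libraries (FDR up to 0.0790), and 0.60 in OVE853 (edgeR FDR 0.246). The GGAATG core was in 6 of 17 promoters of the list (35.3%).

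**Figure D5:**
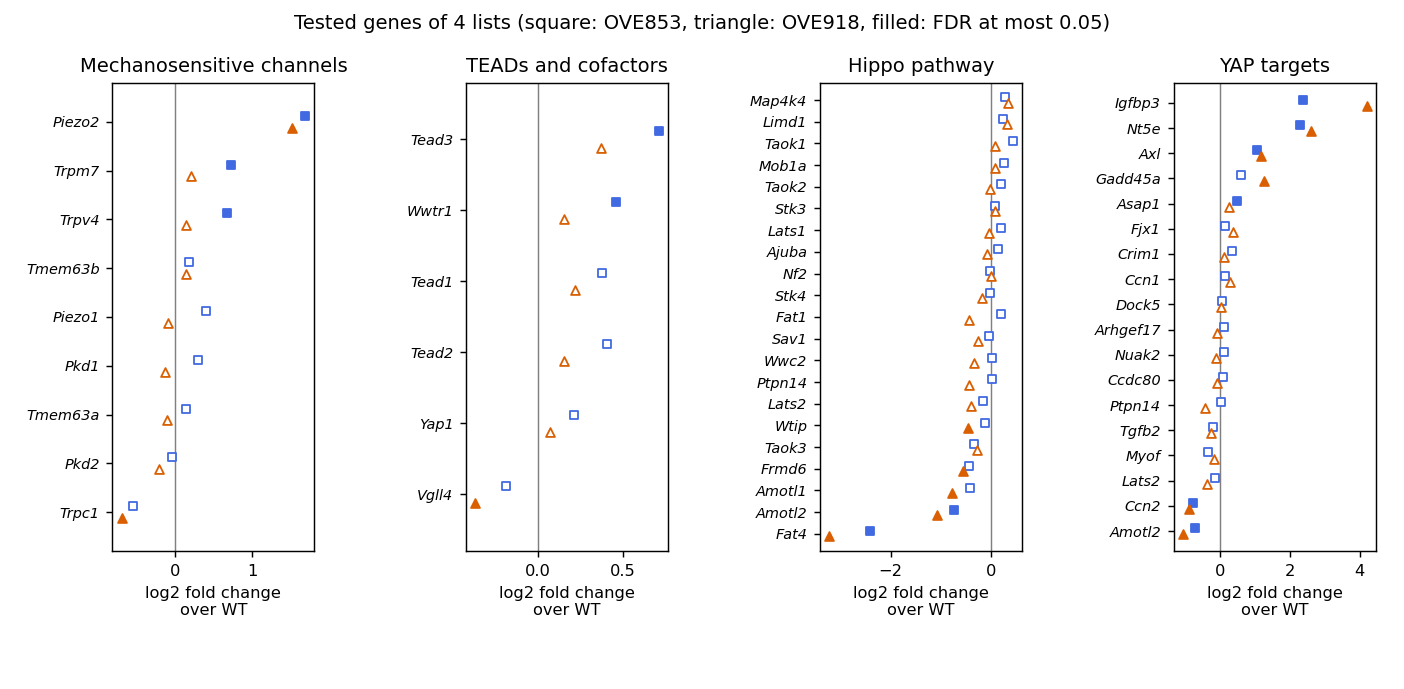
Log2 fold changes over WT (x axis, with a scale of its own in each panel) of the tested genes of 4 lists (y axis) in OVE853 (squares) and OVE918 (triangles), filled where the edgeR FDR was at most 0.05. Piezo2 stands highest among the channels, Fat4 lowest in the Hippo pathway, and the YAP targets with a call lie on both sides of 0.

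A list of SRF, the other factor that reads actin tension, was set beside that of YAP targets. It holds Srf, the MRTF genes Mrtfa and Mrtfb, and actin cytoskeleton targets. Of 15, 13 were tested, of which 4 rose and 1 fell in each line, beside 8.10% and 7.69% of all genes in OVE853 and 8.00% and 11.0% in OVE918. Without OVE853 replicate 3, 2 rose in OVE853, where 412 of all 10912 genes rose. Myl9, a myosin light chain of contractile cells, had 28.8 ± 2.73 CPM in WT (SD, n = 3) and rose to 188 ± 25.4 in OVE853 (SD, n = 3) and 146 ± 7.64 in OVE918 (SD, n = 4), changes on the log2 scale of 2.71 (edgeR FDR 7.06e-07) and 2.34 (edgeR FDR 1.15e-06). Tagln (SM22α) had 3.24 (edgeR FDR 0.0104) and 4.46 (edgeR FDR 0.00109) from 0.90 ± 0.55 CPM in WT (SD, n = 3). Tropomyosins went both ways, with Tpm2 at 0.93 (edgeR FDR 0.0103, and 0.0503 without OVE853 replicate 3) and 1.01 (edgeR FDR 0.00325) and Tpm1 at -0.68 (edgeR FDR 0.00392) and -0.79 (edgeR FDR 0.000579). Vcl, vinculin of focal adhesions, was 0.46 in OVE853 (edgeR FDR 0.0332, a call lost without any 1 of 5 libraries, with FDR up to 0.124) and 0.27 in OVE918 (edgeR FDR 0.144). Acta2, α-smooth muscle actin, was 0.65 in OVE918 (edgeR FDR 0.0440, a call lost without any 1 of 9 libraries, with FDR up to 0.108) and -0.27 in OVE853 (edgeR FDR 0.383). The median of the 13, which include Srf, Mrtfa and Mrtfb, was 0.24 and 0.07. Tagln, low in WT, may also have reached the FPKM minimum only through the lines, so nothing is read from the share that rose. Of the 6 CCN genes only Ccn1 and Ccn2 passed the FPKM minimum.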

How the data were processed

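Lens epithelium explants were pooled into 10 samples of 3 groups, and each pool was sequenced as 1 library (paired reads of 150 bp). The authors removed adapters (Cutadapt 5.2), aligned the reads to GRCm39 (STAR 2.7.11b), assigned them to RefSeq genes by strand (featureCounts 2.0.8) and deposited raw counts per gene without normalization. Depth was 24073311 to 31908525 counts per library, and the number of libraries limits the precision. FPKM was then derived from the counts and GENCODE vM39 exon lengths (7489 of 50763 genes had no length), and genes with at least 2 FPKM in 5 of 10 libraries (11097) were kept. TMM scaling and a robust quasi-likelihood fit of 3 groups were run in edgeR 4.0.16 (R 4.3.3), with Benjamini-Hochberg adjustment in each of 3 contrasts. Log2 CPM for likeness between genes used a prior count of 2. The steps were tested on simulated data. Alternatives were DESeq2 1.42.0, voom with sample weights (limma 3.58.1), upper-quartile scaling, other filters, no robust estimation, only the groups compared, blocks and each library left out.

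The members, lists and tests were chosen with earlier results of these data known. The values of Ankrd1 among genes kept by filterByExpr, calls by FDR alone and the immediate early genes were added after seeing the values. All members are named, and of each list up to 4 genes with the largest mean change over both lines among those past the FDR. Also named were the 3 genes most like Piezo1, Piezo2, Ccn1 and Ccn2, with Asap1, Wtip, Vcl, Acta2, Srf, Mrtfa, Mrtfb, Kcnk2, Tmem63c, Trpc6, Panx1, single markers, the Hippo kinases, Cryaa and Vgll3 beside them to complete counts.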

Additional observations from a re-analysis of the deposited data

Results flagged for a closer look

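Trpv4 differed between the lines by a direct test, with a log2 fold change of -0.53 for OVE918 over OVE853 (edgeR FDR 0.0382), lower in 4 of 4 OVE918 libraries than in any OVE853 library. This FDR was above 0.05 with upper-quartile scaling, filterByExpr, no filter beyond 1 count, either block, or any 1 of 6 libraries left out. Tgfb1, read to check the labels, also differed between the lines, by 1.15 (edgeR FDR 0.00388), and was higher in 4 of 4 OVE918 libraries. In the group of 4 libraries, OVE918, no member had a library far enough from the others to be singled out by Dixon's criterion, and groups of 3 were not examined.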

How the results depend on the processing

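The count of DEGs among the members was 1 in OVE853 and 2 in OVE918. With filterByExpr, and with no filter beyond 1 count, it was 2 in OVE853 and 3 in OVE918, since Ankrd1 then entered the test. In OVE918 it was 1 with voom and sample weights, where Amotl2 was -0.95. With each library left out it was 1 to 2 in OVE853, 1 to 3 in OVE918 and 0 throughout between the lines. Calls by FDR alone that some setting ended were Wwtr1 and Ccn2 in OVE853, Trpv4 between the lines (FDR 0.120 with the replicate block, 0.0996 with the R number block) and Ankrd1 in both lines. Piezo2 and Amotl2 kept theirs in both lines, Trpv4 in OVE853 and Ccn2 in OVE918, in all settings run. Piezo1 in OVE853 gained one with voom, a fit of only the groups compared, the replicate block or without OVE918 replicate 4 (FDR 0.0314 to 0.0431), and between the lines with DESeq2 (0.0256), voom (0.00832) or without OVE918 replicate 2. By voom, Tead1 in OVE853 (FDR 0.0479) and, between the lines, Wwtr1 (FDR 0.0227) and Amotl2 (FDR 0.042) gained one as well. Across the other tools and settings, 0 to 4 members were past the FDR between the lines. Of all 11097 genes, 42 higher and 104 lower passed it there by edgeR, 513 and 444 by DESeq2, and 985 and 1179 by voom. In OVE853 over WT, 899 and 853 passed it by edgeR and 2086 and 1984 by voom. Over all genes, DEGs higher and lower numbered 279 and 212 in OVE853 and 286 and 335 in OVE918, and with filterByExpr, which tests more genes, 572 and 672, and 623 and 964. Between the lines they numbered 8 and 46, with 35 and 72 by DESeq2, 51 and 73 by voom and 3 and 25 with the replicate block. With 1 library left out they were 202 to 366 and 123 to 298 in OVE853, 247 to 343 and 249 to 386 in OVE918, and 1 to 33 and 5 to 68 between the lines. Without WT replicate 3, the lower DEGs were 123 in OVE853 and 249 in OVE918, and without OVE853 replicate 1 those between the lines were 1 and 5.

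Replicate numbers did not pair the pools, with correlations of deviations from the group means of -0.30 to 0.08 over 9 same-numbered pairs. With a replicate block the counts stayed 1 in OVE853, 2 in OVE918 and 0 between the lines, the log2 fold changes of Piezo2 were 1.71 and 1.67, and Ccn1 in OVE853 (-0.044) and Piezo1 in OVE918 (0.017) changed sign. Between the lines Ccn1 changed sign with voom (-0.62) and with a block for the R number in the library names (-0.16), whose meaning is not given in the sources used here. That block put WT replicate 1 and OVE918 replicate 4, which have no R number, together. Over 8 pairs that share a block the correlations were -0.22 to 0.39, highest for OVE853 replicate 3 with OVE918 replicate 2.

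Sign changes with 1 library left out were seen in Ccn1 (-0.90 to 0.60 in OVE853, -0.58 to 0.72 in OVE918, -0.73 to 1.17 between the lines), in Piezo1 (-0.20 to 0.019), Yap1 (-0.031 to 0.12) and Wwtr1 (-0.0013 to 0.23) in OVE918, and between the lines in Ccn2 (-0.21 to 0.13) and Ankrd1 (-0.42 to 0.30, among them 0.052 and 0.069). The cause was not tested. Ankrd1 rests on 1 to 44 counts a library, and for Ccn1 the spread between replicates is the limit.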
